A study of Mus musculus with 202 samples.

Results

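H2-K1 encodes one of the classical heavy chains of mouse MHC class I. E-cadherin-negative (Ecad-) cells sorted from a mouse line of pancreatic ductal adenocarcinoma were compared here in classes chosen by their measured H2-K1 transcript level alone. Cells with an H2-K1 value below 1 on the log2(TPM + 1) scale, where TPM is a gene's share of a library's transcripts, corrected for length, are called H2-K1-low, and cells with a value of 5 or more H2-K1-high. Of 97 Ecad- cells, 29 were H2-K1-low, 48 were H2-K1-high and 20 lay between and were left out. The 77 cells compared belong to a series of 197 cells, of which the other 100 were E-cadherin-positive (Ecad+).

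The line is of the KPC type, a mouse model of pancreatic cancer, and came from a liver metastasis of a male. Cultured cells in serum-containing medium were detached, stained with an antibody to E-cadherin and sorted by flow cytometry. No cell received any other treatment, and both H2-K1 classes carry the same genotype. A Fluidigm C1, which isolates cells in microfluidic chambers, was used for capture, and the libraries fall into 3 library sets by the suffix of their names, whose meaning is not stated. No label names separate cultures, so all Ecad- cells count as 1 sample, cells are not replicates, and no p-value is given.

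MHC class I molecules show peptides from inside the cell to CD8 T cells, and their loss lets tumour cells escape recognition. A heavy chain such as H2-K1 or H2-D1 pairs with the light chain beta-2-microglobulin, encoded by B2m, in the endoplasmic reticulum. There it is held by calreticulin and tapasin until the TAP transporter supplies a peptide. The transcription of class I genes is raised by interferons and by the NLRC5 activator. The comparison asks whether stress, epithelial and cell cycle genes go with the class I transcript.

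H2-K1 lies on chromosome 17 at 33996017 to 34000347 in mm10, on the minus strand (ENSMUSG00000061232). Since its value chose the classes, its levels are a description. H2-K1-low cells ranged from 0 to 0.963 TPM with a median of 0.0908 TPM, and 12 of the 29 cells were listed at 0. H2-K1-high cells ranged from 32.6 to 312 TPM with a median of 82.6 TPM. The highest value under the lower threshold was 0.97 and the next above it 1.06 on the log2 scale. At the upper threshold these values were 4.90 and 5.07. No gap in the values lies at either threshold, and the cells between had a median of 16.9 TPM. In library sets 1, 2 and 3 there were 9, 12 and 9 H2-K1-low and 18, 13 and 17 H2-K1-high libraries, so each set held both classes. A pair of near-identical H2-K1-low libraries, from sets 2 and 1, was averaged and counted as 1 cell, although no label says that it is. These libraries had 0.337 and 0 TPM of H2-K1 and mitochondrial shares of 37.5% and 11.4%.

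**Figure D1:**
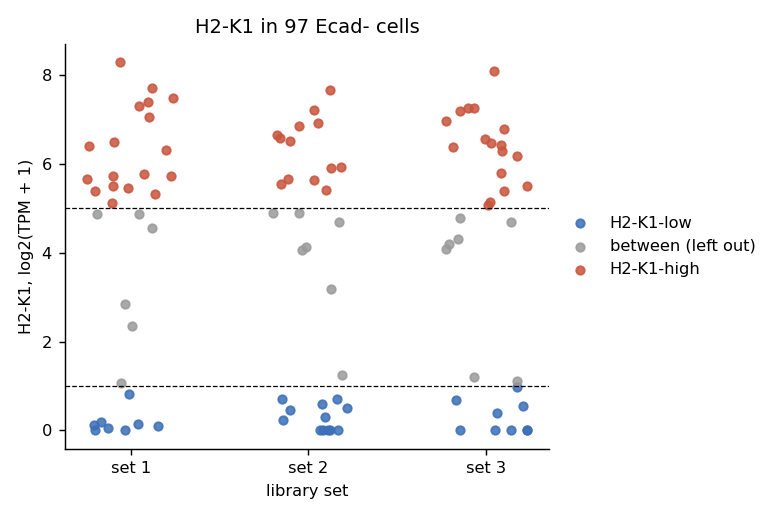
H2-K1 level, log2(TPM + 1), of each of 97 Ecad- cells by library set, coloured by class, with dashed lines at the thresholds of 1 and 5. Both classes occur in each set, and 20 cells lie between the thresholds.

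The 2 classes differed in how many genes were seen and in their mitochondrial RNA. H2-K1-low cells had a median of 8186 genes above 0 (quartiles 7557 and 8694), and H2-K1-high cells 8897.5 (quartiles 8524.25 and 10062.2). In library sets 1, 2 and 3 the medians were 8415, 8226 and 7443 genes in H2-K1-low libraries and 10084.5, 8884 and 8559 in H2-K1-high libraries. A low H2-K1 value thus went with a library in which fewer genes were seen, and TPM keeps no read depth. Mitochondrial genes took a median of 13.5% of TPM in H2-K1-low cells and 0.554% in H2-K1-high cells. This share was under 1% in 10 of 29 H2-K1-low cells (34.5%, exact Clopper-Pearson 95% interval 17.9% to 54.3%) and in 25 of 48 H2-K1-high cells (52.1%, 37.2% to 66.7%). The intervals overlap. Like all exact intervals here, they hold for counting error only, with each cell taken as independent. In library sets 1, 2 and 3 the share was under 1% in 1 of 9, 4 of 12 and 5 of 9 H2-K1-low libraries. For H2-K1-high libraries these numbers were 5 of 18, 7 of 13 and 13 of 17. Library set and mitochondrial share thus went together, and their parts in the results below were not tested. Values without these low-share cells (19 H2-K1-low and 23 H2-K1-high cells remain), and values from cells with 7500 to 9200 genes (22 and 23 cells), stand beside the results below. In the second restriction the median number of genes was 8223.5 and 8685, so the gap narrowed but did not close.

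**Figure D2:**
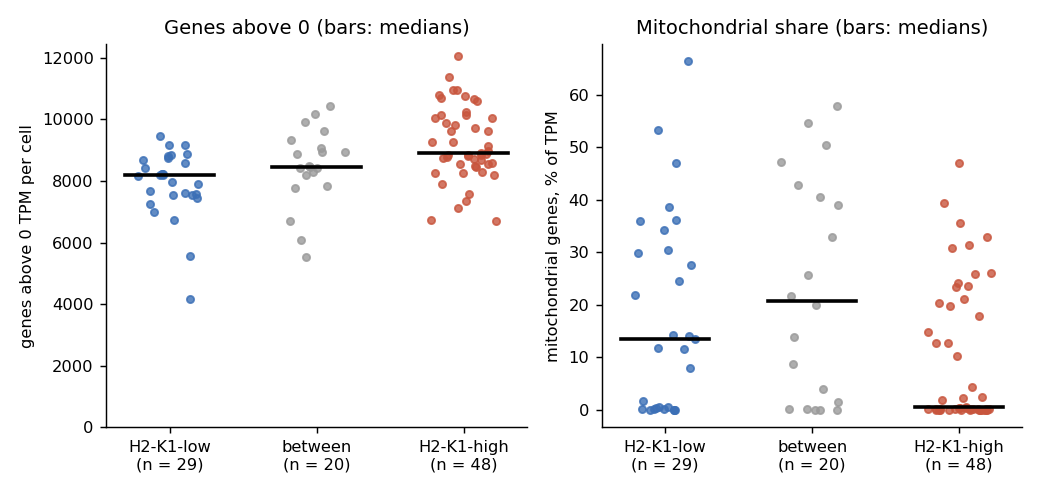
Genes above 0 TPM per cell (left) and percent of TPM from mitochondrial genes (right) for each Ecad- cell by H2-K1 class, with bars at the medians. H2-K1-high cells lie higher on the left (median 8897.5 against 8186) and more of them lie near 0 on the right.

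Most genes stood somewhat higher in H2-K1-high cells. Ratios are log2 of the mean TPM over H2-K1-high cells plus 1 TPM over that of H2-K1-low cells plus 1 TPM. The floor for a gene was a mean of 5 TPM over Ecad- cells, with 10% or more of them above 0. Over the 7427 genes above this floor, H2-K1 aside, the median ratio was 0.29. It was 0.34, 0.11 and 0.57 within library sets 1, 2 and 3, and 0.14 after TPM was rescaled without the genes of the mitochondrial genome and of ribosomal proteins. At least 2-fold higher were 850 genes (11.4%) and at least 2-fold lower 110 (1.48%). Relative to the all-gene median these numbers were 456 and 263, so the share of higher genes among those past 2-fold went from 88.5% to 63.4%. Higher in each of the 3 sets were 31.8% of genes and lower in each 6.02%, which are the background for the counts below. Medians of gene lists are given relative to the all-gene median, and ratios of single genes as measured.

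The class I partners B2m and H2-D1 were higher in H2-K1-high cells. B2m, on chromosome 2 at 122147686 to 122153083, ranged from 0 to 1115 TPM in H2-K1-low cells with a median of 261 TPM, and from 94.3 to 3256 TPM in H2-K1-high cells with a median of 604 TPM. The ranges overlap widely, and the cells between had a median of 489 TPM. The ratio of means was 1.49 (324 ± 271 and 910.0 ± 783 TPM, SD over 29 and 48 cells), with 1.87, 0.86 and 1.60 within library sets 1, 2 and 3. It was 1.16 without low-share cells and 1.61 in cells with 7500 to 9200 genes. H2-D1, the other classical heavy chain, lies on chromosome 17 at 35262730 to 35267499. It ranged from 0 to 291 TPM with a median of 12.5 TPM in H2-K1-low cells, and from 0 to 419 TPM with a median of 67.5 TPM in H2-K1-high cells. Of the H2-K1-low cells 23 of 29 had H2-D1 above 0 (79.3%, exact 95% interval 60.3% to 92.0%), against 47 of 48 H2-K1-high cells (97.9%, 88.9% to 99.95%). Most H2-K1-low cells thus had an H2-D1 value above 0, as 17 of the 29 had for H2-K1 itself. The H2-D1 intervals overlap, as do its levels in the classes. The H2-D1 ratio was 1.13, with 0.80, 0.92 and 1.61 within sets, 0.68 when low-share cells were left out and 0.98 in cells with 7500 to 9200 genes. The heavy chains are close paralogs, kallisto can split reads among them, and their values are therefore uncertain.

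The stretches upstream of H2-K1 and B2m are shown because both genes carry the element types described for class I promoters. H2-K1 itself defined the classes, so only the B2m level was free to differ, and shared regulation was not tested. They come from RefSeq on build GRCm38.p6, and run 5′ to 3′ in the gene's direction. The H2-K1 stretch is chr17:34000349-34000468 on the minus strand and spans positions -121 to -2 from the transcript start. The B2m stretch is chr2:122147538-122147648 on the plus strand and spans positions -149 to -39.
H2-K1: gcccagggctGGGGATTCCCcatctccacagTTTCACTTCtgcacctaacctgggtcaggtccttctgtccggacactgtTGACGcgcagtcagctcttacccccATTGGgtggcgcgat
B2m: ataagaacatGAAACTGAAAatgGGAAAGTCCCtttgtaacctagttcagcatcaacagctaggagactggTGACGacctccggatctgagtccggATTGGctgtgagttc
Capitals mark matches, on either strand, to an NF-kB-like motif (GGG, NN, TT, N and CC in a row), to GAANNGAAA or the longer form with GAAA, NN and GAAA (both like sites of interferon regulatory factors), to TGACG (part of the X2 box) and to ATTGG (Y box). In the 250 bases upstream of all 32851 promoters of the table, 4.1%, 6.3%, 3.0%, 17.8% and 33.8% hold these motifs in that order. In H2-K1 they stood at -111, -90, -41 and -16 in the order NF-kB-like, interferon-like, X2 and Y. In B2m the interferon-like match at -139 came before the NF-kB-like match at -126, with X2 at -78 and Y at -53. The same 250 bases of H2-D1 also held a match of each type, at -171, -150, -101 and -76 in the H2-K1 order, and another ATTGG on the opposite strand at -53. A match is a description of the letters and shows no binding.

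The non-classical class I genes stood nearer to all genes. Of 20 class I chain genes in the table other than H2-K1, 5 were above the floor. B2m and H2-D1 were the 2 past 2-fold (40%, beside 11.4% of all genes). The 5 genes had a median of 0.00 relative to all genes, with -0.14, 0.23 and 1.03 within sets. H2-T23, which encodes the Qa-1 heavy chain that engages receptors of natural killer cells, was above 0 in all 29 and all 48 cells. It had a median of 58.7 TPM in H2-K1-low cells (range 2.75 to 1203) and 39.9 TPM in H2-K1-high cells (range 0.803 to 224). Its ratio of -0.85 went with set 3, where it was -2.43, against 0.20 and 0.35 in sets 1 and 2. H2-T22 stood at 0.29 and H2-T24 at -0.12.

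Of the peptide loading and immunoproteasome list, 12 of 18 genes in the table were above the floor. They had a median of 0.03 relative to all genes, with 2 at least 2-fold higher (16.7%, beside 11.4% of all genes) and 5 higher in each set (41.7%, beside 31.8%). The 2 past 2-fold were Calr and Tapbp. Calr, the gene of the chaperone calreticulin, ranged from 0 to 463 TPM with a median of 133 TPM in H2-K1-low cells, and from 0 to 2205 TPM with a median of 306 TPM in H2-K1-high cells. Its ratio was 1.26, with 1.94, 0.69 and 1.24 within sets, 0.89 when low-share cells were left out and 0.70 in cells with 7500 to 9200 genes. Tapbp, the gene of tapasin, had medians of 12.7 TPM (range 0 to 82.5) and 34.6 TPM (range 0 to 198). The Tapbp ratio was 1.14, with 0.80, 1.11 and 2.36 within sets and 0.69 without low-share cells. Both genes overlap between classes, with the H2-K1-high cells shifted upward. The chaperone gene Canx stood at 0.49, the disulfide isomerase gene Pdia3 at 0.44, and the peptidase gene Tpp2 at 0.80. The aminopeptidase gene Npepps stood at -0.53. Tap1, a TAP transporter subunit, was above 0 in 1 cell of each class, with means that round to 0.00 TPM. Interferon genes had a median of -0.11 relative to all genes, and 8 of 14 lay below the all-gene median. The interferon list thus did not stand apart.

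**Figure D3:**
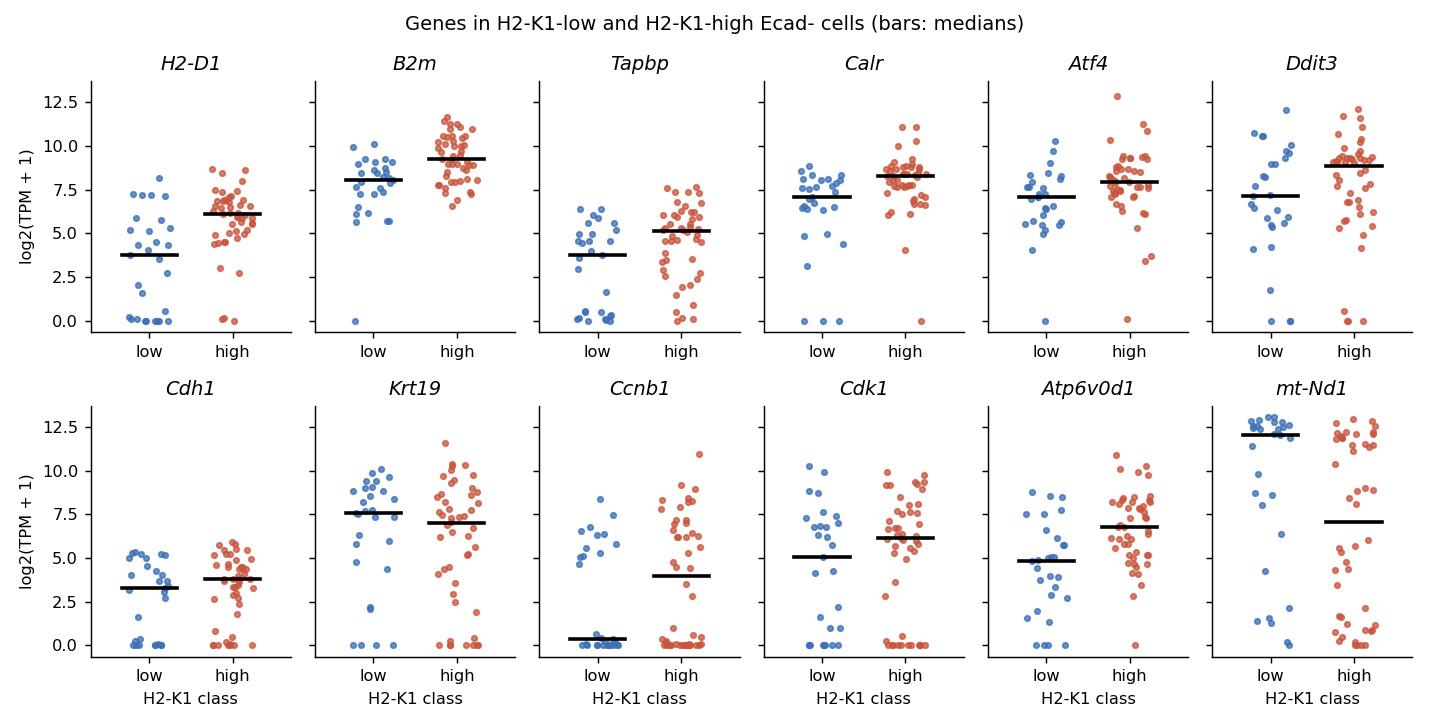
Level, log2(TPM + 1), of 12 genes in each H2-K1-low (29) and H2-K1-high (48) Ecad- cell, with bars at the medians. The classes overlap for every gene shown. H2-D1, B2m, Tapbp and Calr have higher medians in H2-K1-high cells, and so do Atf4, Ddit3, Ccnb1, Cdk1 and Atp6v0d1. The median of mt-Nd1 is lower, and Cdh1 and Krt19 differ little.

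Integrated stress response genes stood close to all genes as a list, and differed between library sets. Among 36 integrated stress response genes past the floor, 23 exceeded the all-gene median, 7 were at least 2-fold higher (19.4%, beside 11.4% of all genes) and none was 2-fold lower. Higher in each set were 13 genes (36.1%, beside 31.8% of all genes). As a list they had a median of 0.13 relative to all genes, but 0.39, 0.38 and -0.53 in sets 1, 2 and 3. It was 0.48 without low-share cells, -0.29 in low-share cells alone, and 0.29 in cells with 7500 to 9200 genes. Atf4, the transcription factor at the centre of this response, had a median of 133 TPM in H2-K1-low cells (range 0 to 1258) and 243 TPM in H2-K1-high cells (range 0.0647 to 7500). Its ratio was 1.33, with 0.98, 1.56 and 1.32 within sets and 1.15 when low-share cells were left out. Among its known targets and partners, Atf3 stood at 1.11, the alanyl-tRNA synthetase gene Aars at 1.18 and the amino acid transporter gene Slc7a3 at 1.61, although Slc7a3 was at -0.20 in set 1.

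Ddit3, which encodes CHOP, also differed between sets, of which set 3 held the most low-share libraries. It ranged from 0 to 4231 TPM with a median of 138 TPM in H2-K1-low cells, and from 0 to 4418 TPM with a median of 465 TPM in H2-K1-high cells. The 2 classes covered nearly the same range. The ratio of means was 0.33, with 0.80, 0.85 and -0.51 in sets 1, 2 and 3, and 0.94 with means of log values. Trib3, a CHOP target, had a median of 0 TPM in H2-K1-low and 23.4 TPM in H2-K1-high cells, with 1.50, 2.67 and -0.13 within sets.

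Unfolded protein response genes did not stand apart from all genes. Of 36 above the floor, 17 lay above and 19 below the all-gene median, and the list median was -0.09, with 0.18, 0.12 and -0.47 within sets. Hspa5, the gene of the chaperone BiP, had medians of 304 and 300.2 TPM in H2-K1-low and H2-K1-high cells. Calr at 1.26 and Crebrf, a regulator of CREB3, at 1.46 were the 2 members past 2-fold upward (5.56%, beside 11.4% of all genes). In set 2 Crebrf was at -0.46. Ero1l, an endoplasmic reticulum oxidase gene, stood at -1.13, with -0.28, 0.99 and -2.32 within sets, and at 0.33 without set 3.

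Epithelial genes as a list stood near the all-gene median, with set 3 apart. Of 21 above the floor, 11 lay above and 10 below the all-gene median. In each set 5 stood higher (23.8%, beside 31.8% of all genes) and 2 lower. The only member past 2-fold was Cldn3, a tight junction gene, at 1.18 (4.76% of the list, beside 11.4% of all genes higher). Cldn3 stood at 0.88, -1.64 and 2.85 within sets. The list median was 0.04, with 0.02, 0.26 and -0.88 within sets, 0.24 when low-share cells were left out and -0.06 in cells with 7500 to 9200 genes. Cdh1, the gene of the sorted protein, ranged from 0 to 39.5 TPM in H2-K1-low cells with a median of 8.64 TPM. In H2-K1-high cells it ranged from 0 to 58.7 TPM with a median of 12.7 TPM. It was above 0 in 22 of 29 cells (75.9%, exact 95% interval 56.5% to 89.7%) and in 41 of 48 cells (85.4%, 72.2% to 93.9%), and its ratio was 0.34. The intervals for Cdh1 hold for counting error only and overlap, as do its levels in the classes. Keratins typical of ductal cells were seen in most cells of both classes, Krt8 in 29 of 29 and 47 of 48 and Krt19 in 25 of 29 and 41 of 48. The ductal keratin Krt19 had a median of 190.0 TPM in H2-K1-low and 126 TPM in H2-K1-high cells, with a ratio of means of 0.16 and of -0.51 with means of log values. Krt8 stood at 0.24. Jup, the gene of the junction protein plakoglobin, stood at 1.00 (0.60, 0.46 and 1.97 within sets), and Muc1, a mucin of ductal cells, at -0.87 (-0.36, -0.56 and -2.23). Of 7 mesenchymal genes above the floor, 3 lay above and 4 below the all-gene median, and none was past 2-fold. None was higher in each set and 2 were lower in each (6.02% of all genes were). The list median was -0.56 (-0.04, -0.39 and -0.83 within sets), -0.22 without low-share cells and -0.74 in cells with 7500 to 9200 genes. S100a4 stood at -0.89, Cdh2 at -0.78 and Vim at -0.48, and Snai2, Axl and Cald1 at 0.39, 0.33 and 0.32.

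Mitosis genes had higher means in H2-K1-high cells. Among 56 G2/M genes past the floor, 47 exceeded the all-gene median and 24 were at least 2-fold higher (42.9%, beside 11.4% of all genes). Higher in each set were 34 (60.7%, beside 31.8% of all genes). The list median was 0.64, with 0.53, 0.44 and 1.06 within sets and 0.57 when low-share cells were left out. It was 0.26 with means of log values, -0.10 with medians over cells, and -0.09 in cells with 7500 to 9200 genes. The list thus lost its direction in both of the last settings, which were chosen after seeing the data. Of the 56 genes, 25 had a ratio below 0 in cells with 7500 to 9200 genes. The median ratio of all genes there was 0.24, and the share of all genes below 0 was not counted. Summed over the list, TPM ranged from 289 to 12512 in H2-K1-low cells with a median of 832, and from 266 to 22700 in H2-K1-high cells with a median of 1216. Hmmr, the gene of a spindle protein, had a median of 0.325 TPM (highest 59.6) in H2-K1-low and 0.873 TPM (highest 494) in H2-K1-high cells. Its medians lay close together and its ratio of 2.65 went with the high end of the range. Ccnb1, the mitotic cyclin B1, stood at 1.69 with medians of 0.306 and 15.7 TPM. Aurka and Nusap1, genes of a mitotic kinase and of a spindle protein, stood at 2.52 and 2.63. Other cycle genes differed less. Cdk1, the mitotic kinase that pairs with cyclin B1, stood at 0.22, or 0.84 with means of log values, with medians of 32.5 and 69.2 TPM. The proliferation marker Mki67, which was below the floor, stood at -0.06. Mki67 was above 0 in 13 of 29 (44.8%, exact 95% interval 26.4% to 64.3%) and 20 of 48 cells (41.7%, 27.6% to 56.8%).

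G1/S genes gave a median of 0.24 over 44 genes, of which 33 exceeded the all-gene median and 13 were at least 2-fold higher (29.5%, beside 11.4% of all genes). Within sets it was 0.81, 0.08 and 0.86, without set 2 it was 0.85, and in cells with 7500 to 9200 genes it was -0.26. Hells, a chromatin remodeller gene, stood at 1.66. Cdt1, a replication licensing factor gene, stood at 1.76 but at -0.29 without low-share cells. Cdkn1a, the gene of the cell cycle inhibitor p21, had a median of 8.66 TPM (range 0 to 961) in H2-K1-low and 110.2 TPM (range 0 to 941) in H2-K1-high cells. It was above 0 in 18 of 29 and 42 of 48 cells. Its ratio of means was 0.59, with 0.83, 1.43 and -0.06 within sets, against 2.24 with means of log values. Inhibitors and p53 targets as a list had a median of 0.18, with 0.18, 0.66 and -0.48 within sets.

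**Figure D4:**
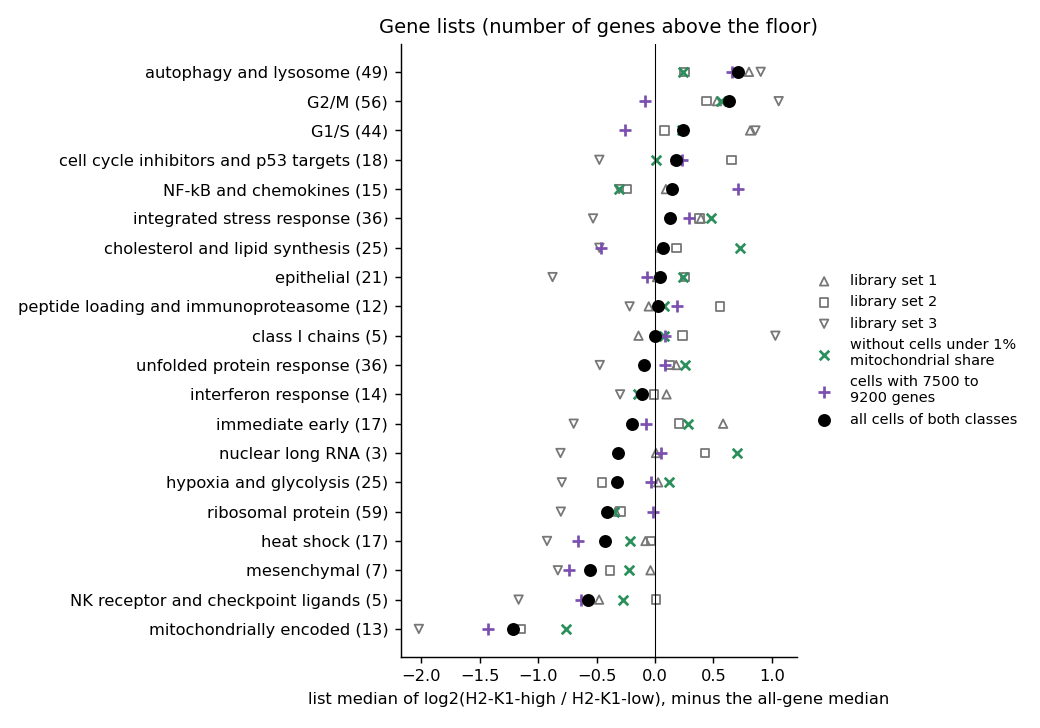
Median over the genes of each list of the log2 ratio of H2-K1-high to H2-K1-low Ecad- cells, minus the all-gene median, for all cells of both classes (filled), within library sets (open) and in 2 restricted groups of cells (crosses). Autophagy and lysosome genes lie above 0 and mitochondrially encoded genes below 0 in each, while G2/M and G1/S genes fall to -0.09 and -0.26 among cells with 7500 to 9200 genes.

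Autophagy and lysosome genes had higher means in H2-K1-high cells, with the highest list median over all cells but in no single library set. Among the 49 past the floor, 44 exceeded the all-gene median and 24 were at least 2-fold higher (49.0%, beside 11.4% of all genes). Higher in each set were 36 (73.5%, beside 31.8% of all genes). The list median was 0.71, with 0.80, 0.25 and 0.91 within sets. It was 0.66 in cells with 7500 to 9200 genes, 0.65 in low-share cells alone and 0.24 without low-share cells. Low-share cells, which made up 52.1% of H2-K1-high and 34.5% of H2-K1-low cells, moved with this list; their part in it was not tested beyond these values.

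Subunits of the vacuolar proton pump, which acidifies lysosomes, were among the higher genes. Atp6v0d1 ranged from 0 to 442 TPM with a median of 27.9 TPM in H2-K1-low cells, and from 0 to 1923 TPM with a median of 108.3 TPM in H2-K1-high cells. Its ratio was 1.65, or 0.51 without low-share cells. Atp6v1b2 stood at 1.89 (1.33, 1.19 and 3.19 within sets), Atp6v1c1 at 1.66 and Atp6ap1 at 1.55. Among lysosomal enzymes and cargo proteins, the hexosaminidase subunit Hexa stood at 2.03 and at 2.22 without low-share cells, progranulin (Grn) at 1.59 and the protease gene Ctsd at 1.41. Gusb, the beta-glucuronidase gene, went the other way in each set and stood at -0.81. Of the nutrient sensing genes that act at the lysosome, Fnip1 stood at 1.99 (2.60, 1.27 and 2.63 within sets, 1.36 when low-share cells were left out) and its partner Flcn at 1.78. The LC3 gene Map1lc3b stood at 1.40, or 0.12 without low-share cells, whereas the receptor gene Sqstm1 stood at 0.47, or 1.21 without them.

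**Figure D5:**
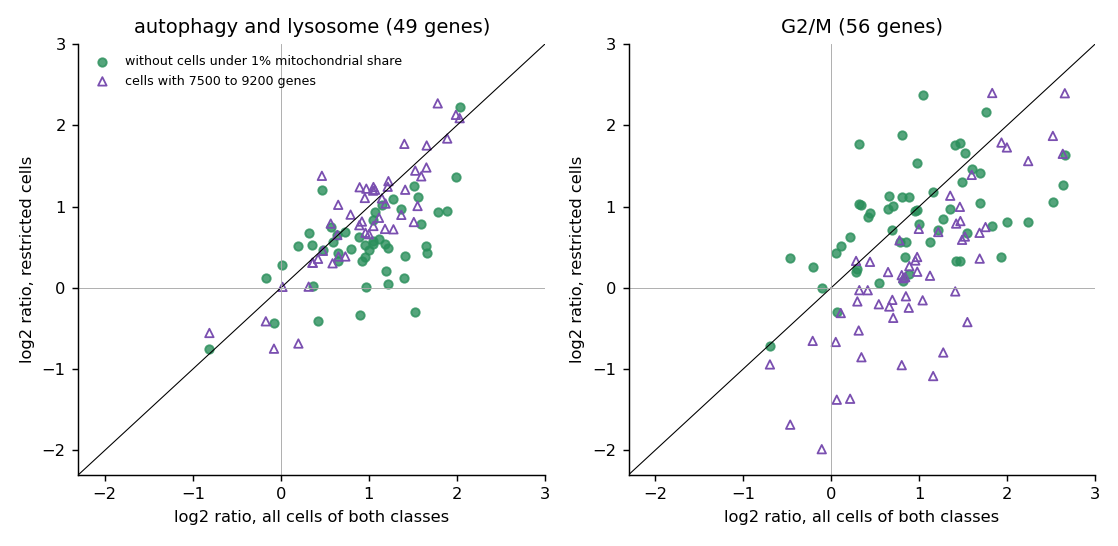
Log2 ratio of each autophagy and lysosome gene (left, 49 genes) and each G2/M gene (right, 56 genes), in restricted cells against all cells of both classes, with the line of equality. Circles leave out cells with a mitochondrial share under 1%, and triangles keep cells with 7500 to 9200 genes. In cells with 7500 to 9200 genes, autophagy and lysosome genes stay near the line, with 4 of 49 below 0. Of the G2/M genes, 25 of 56 lie below 0 there. The median ratio of all genes in these cells was 0.24, and the share of all genes below 0 was not counted.

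The genes with the largest ratio held in each library set included further lysosomal genes. Of all genes, 8.93% were at least 2-fold higher as well as higher in each set. Tmem55b, which encodes a lysosomal membrane phosphatase that helps position lysosomes, had a median of 0.0363 TPM (highest 53.1) in H2-K1-low and 13.9 TPM (highest 697) in H2-K1-high cells. Its ratio was 2.84, with 2.91, 2.53 and 2.78 within sets, and 1.71 when low-share cells were left out. Cd68, a lysosomal glycoprotein also used as a macrophage marker, was above 0 in 6 of 29 and 27 of 48 cells, with a ratio of 2.61 (3.21, 2.38 and 3.22 within sets). Among 18 immune markers in the table, only Cd68 was above the floor and 5 were at 0 in every Ecad- cell; Ptprc, the pan-leukocyte marker, was at 0 in each cell of both classes. Summed immune marker TPM ranged from 0 to 177 in H2-K1-low and from 0 to 370.1 in H2-K1-high cells. Txnrd2, the mitochondrial thioredoxin reductase gene, stood at 3.07 (4.83, 2.10 and 4.76 within sets). Tmem140 also stood at 3.07, Lrrc41 at 2.11, Asf1b, a histone chaperone gene, at 1.93, Ccdc130 at 1.82 and Zfp868 at 1.64, besides Hmmr and Nusap1.

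Lower in H2-K1-high cells in each set were mitochondrially encoded genes and Tmsb4x, which encodes an actin-binding peptide, among others. Of all genes, 0.902% were at least 2-fold lower as well as lower in each set. All 13 mitochondrial messenger RNAs were lower in each set (6.02% of all genes were), and 5 were at least 2-fold lower (1.48% of all genes). The list median was -1.22, with -1.21, -1.15 and -2.02 within sets, -0.76 when low-share cells were left out and -1.43 in cells with 7500 to 9200 genes. mt-Nd1, a subunit of respiratory complex I, had a median of 4170 TPM in H2-K1-low cells (range 0 to 8610) and 170.6 TPM in H2-K1-high cells (range 0 to 8045). The ranges were alike and a larger share of H2-K1-high cells lay near 0. Without low-share cells the list still stood lower (-0.76), but cells with small shares remained there. Among these were H2-K1-high cells at 1.87% to 4.34% and an H2-K1-low cell at 1.75%. The part of cells near 0 in the shift was not tested. mt-Nd6 stood at -1.47 and mt-Nd3 at -1.41. Tmsb4x had medians of 4443 and 2773 TPM and a ratio of -1.05 (-0.91, -0.96 and -1.99 within sets). Apoc2 stood at -1.76, Pdzk1ip1 at -2.03, Tm4sf20 at -2.09 and Hspb6 at -0.88; Hspb6 turned to 0.56 in low-share cells alone. Ribosomal protein genes had a median of -0.41, and 59 of 59 lay below the all-gene median over all cells. That median was -0.02 in cells with 7500 to 9200 genes.

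Across all 97 Ecad- cells, the cells between included, no gene followed H2-K1 closely. The 5 genes most like it, by the median over library sets of Spearman's rho, were Necap2 (0.62), Lonp1 (0.61), Rnf185 (0.57), Fam118b (0.56) and Asna1 (0.55). Over the 97 cells these values were 0.45, 0.49, 0.49, 0.46 and 0.47. H2-D1 and B2m had medians over sets of 0.50 and 0.44, below these 5 genes, which were picked as the highest by that measure. Over the 97 cells H2-D1 stood at 0.48, within the values of the 5 genes, and B2m at 0.41. The median over all genes was 0.12, and H2-K1 correlated at 0.43 with the number of genes above 0. Library set and the number of genes seen differed between cells, and depth is unknown. The 5 most unlike genes were mt-Nd3 (-0.42), Cyr61 (-0.42), mt-Nd6 (-0.39), Mrps28 (-0.38) and S100a6 (-0.38), again as medians over sets. S100a6, a calcium-binding protein gene, had medians of 6910 TPM in H2-K1-low and 4623 TPM in H2-K1-high cells.

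The same thresholds in Ecad+ cells gave 10 H2-K1-low, 45 H2-K1-high and 45 cells between. H2-K1-low cells made up 29 of 97 Ecad- cells and 10 of 100 Ecad+ cells. The median number of genes in Ecad+ cells was 10208 in H2-K1-low and 10465 in H2-K1-high cells, above the 8186 and 8897.5 of the Ecad- classes. H2-D1 had means of 14.9 and 42.7 TPM in these Ecad+ cells (ratio 1.46), whereas B2m had 223 and 270.5 TPM (0.28, against 1.49 in Ecad- cells). Integrated stress response genes had a median of 0.77 relative to all genes in Ecad+ cells, with Ddit3 at 8.32 and 52.2 TPM (2.51). Autophagy and lysosome genes stood at 0.44, G2/M genes at -0.24 and mitochondrially encoded genes at -0.29. Differences between the Ecad- and Ecad+ comparisons were not tested, and the Ecad+ values rest on 10 H2-K1-low cells.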

How the data were processed

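The authors deposited 1 table of log2(TPM + 1) values for 28987 genes in 202 single-cell libraries, made with the SMARTer and Nextera XT kits per the labels' protocols. FastQC 0.11.5, kallisto and build mm10 are named in the submitters' processing notes, with no role given. The table holds no read counts, so depth per cell is unknown, and the libraries carry no molecular identifiers. Values were turned back into TPM. The 5 pairs of libraries correlating above 0.97 were averaged as 1 cell each, which left 197 cells.

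H2-K1 classes were cut at log2 values of 1 and 5. Ratios use mean TPM with a pseudocount of 1 TPM, and list medians were centred on the all-gene median. A share under 1% of TPM from mitochondrial genes is called a low share. Members and lists were chosen with earlier results of these data known. Genes named are 14 set genes, up to 4 per list with the largest ratio, the 10 highest and 10 lowest by their smallest ratio over sets (floor of 20 TPM and 25% of cells), and the 5 most like and unlike H2-K1; Malat1 was not analysed here. Atp6ap1, Atp6v0d1, Atp6v1c1, Axl, Cald1, Canx, Ccnb1, Ctsd, Grn, Gusb, H2-T24, Krt8, Map1lc3b, Pdia3, Sqstm1 and Trib3 were named after their values were seen. Python 3.11.15, pandas 2.3.3, numpy 2.4.6 and scipy 1.17.1 were used, and the ratio step was tested on simulated data. Alternatives covered the averaging, pseudocount, floor, thresholds, library sets and cell subsets.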

Additional observations from a re-analysis of the deposited data

How the results depend on the processing

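The H2-K1-high cells had 850 genes at least 2-fold higher and 110 at least 2-fold lower. These counts were 1449 and 59 with means of log2 values, 250 and 38 with a pseudocount of 10 TPM, 1677 and 369 with no floor, 155 and 21 with a floor of 50 TPM, and 1276 and 503 in low-share cells alone. The lower count was 225 for cells listed at exactly 0 against 5 or more, 277 for cells below 1 against 6 or more, and 296 in cells with 7500 to 9200 genes. The higher count was 1986 with medians over cells. Leaving out each library set in turn gave 683 to 1619 higher and 111 to 306 lower genes, 0.20 to 0.85 for the G1/S median, and 862.5 to 1482 for the gap in genes above 0, which was 711.5 over all cells.

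The G2/M median of 0.64 was 0.26 with means of log2 values, 0.98 for cells at exactly 0, -0.086 in cells with 7500 to 9200 genes and -0.10 with medians over cells. In cells with 7500 to 9200 genes the G1/S median was -0.26. The mitochondrially encoded median of -1.22 was -2.64 with means of log2 values, -2.11 against cells of 6 or more, and -5.13 with medians over cells. The autophagy and lysosome median of 0.71 was 0.24 without low-share cells. The class I median of 0.00 was 0.91 with a floor of 50 TPM and 0.72 with medians over cells. The 7500 to 9200 window and the medians over cells were chosen after seeing the data, and the cause of these shifts was not tested.

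Of 107 named genes, 60 were past 2-fold, and 8 of these changed sign in at least 1 setting, as did 29 of the 47 below 2-fold. Leaving out each set in turn gave -4.22 to 2.30 for Hspa1a, -3.71 to 2.48 for Hspa1b, -1.85 to 0.66 for Gadd45g and -1.60 to 0.33 for Ero1l, each positive when set 3 was left out. Hspa1a turned to 0.036 with trimmed means, 0.0035 with means of log2 values and 0.29 after leaving out low-share cells. Hspa1b turned to 0.0325 with trimmed means. Ero1l turned to 0.48 with means of log2 values, 0.81 without low-share cells, 0.12 without the 10% of cells with the fewest genes, 0.93 in cells with 7500 to 9200 genes and 0.71 with medians. Cxcl5 turned to 0.038 for cells at exactly 0 and 0.022 in low-share cells alone, where Ccl20 turned to 1.91 and Fdft1 to -0.78. Cdt1 turned to -0.29 without low-share cells.

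No paired analysis was possible because no result comes from a test and the numbers in the labels only name cells. Depth is unknown, so a value of 0 does not show that a transcript was absent, and fewer genes seen and less H2-K1 cannot be told apart in these cells.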

Other observations

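Heat shock genes lay lower in H2-K1-high Ecad- cells, with a median of -0.43 over 17 genes relative to all genes, of which 15 lay below the all-gene median. Within library sets 1, 2 and 3 the median was -0.08, -0.03 and -0.92. The inducible HSP70 gene Hspa1a ranged up to 1579 TPM in H2-K1-low and up to 273 TPM in H2-K1-high cells, with a median of 0 TPM in both. Its ratio was -2.56, but 0.91, 2.99 and -4.57 in sets 1, 2 and 3.

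Chemokine and cytokine genes went both ways. Ccl20, which attracts CCR6-bearing lymphocytes, was above 0 in 6 of 29 H2-K1-low and 8 of 48 H2-K1-high cells, with a ratio of -2.17. Cxcl5, a neutrophil attractant, was above 0 in 20 and 23 cells, with a ratio of -2.16. Csf2, the gene of GM-CSF, was above 0 in 4 and 15 cells, with a ratio of 2.43 that was 6.43, 1.23 and 0.00 within sets. Cxcl10, an interferon-induced chemokine, stood at 4.95 from 3 and 8 cells above 0, and its highest value was 13487 TPM. The hypoxia and glycolysis list stood at -0.32, with 20 of 25 below the all-gene median. For cholesterol and lipid synthesis the median was 0.07, with 14 of 25 above the all-gene median. Immediate early genes stood at -0.20, with 0.58, 0.21 and -0.70 within sets. Ligands of natural killer receptors and checkpoints stood at -0.57 over 5 genes, with -0.48, 0.01 and -1.17 within sets.

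Most markers of other cell types had means under 1 TPM in both classes. Vwf, an endothelial marker, was above 0 in 19 of 29 H2-K1-low and 37 of 48 H2-K1-high cells, with means of 0.873 and 5.96 TPM. Ttr, a hepatocyte marker, was above 0 in 4 cells of each class, with means of 23.4 and 5.29 TPM, and Cd74, an immune marker, in 4 and 6 cells, with means of 10.3 and 2.75 TPM. No fibroblast, endothelial or acinar and endocrine marker was above the floor. Summed fibroblast markers reached at most 27.4 TPM in an H2-K1-low and 5.00 TPM in an H2-K1-high cell. Summed endothelial markers reached 10.8 and 67.9 TPM, hepatocyte markers 642 and 433 TPM, and acinar and endocrine markers 38.7 and 26.6 TPM.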
